A study of Caenorhabditis elegans with 8 samples.

Results

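The genes described here are the dumpy, squat and roller collagens dpy-2, dpy-3, dpy-7, dpy-8, dpy-10, dpy-13, sqt-1, sqt-2, sqt-3 and rol-6, named for the short, squat or rolling worms that their mutations cause. They were chosen by gene symbol, with the brightest probe kept for each gene. Of the 10 genes 9 had a probe, each exactly 1, among 26128 genes that had a probe with a single symbol. No probe carried the symbol dpy-10, which is not analysed here. RNA came from whole synchronized populations of Caenorhabditis elegans N2 Bristol, the wild-type laboratory strain, kept at 20 °C on OP50 Escherichia coli and aged without further intervention. Populations at day 1 (3 arrays), day 6 (3 arrays) and day 12 of adulthood (2 arrays) were each measured on a C. elegans Gene 1.1 ST array from Affymetrix. The labels call the replicates biological and say nothing of separate cultures, so p-values measure the spread between these samples. No batch is named, and one that ran with the ages could not be separated from them.

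The cuticle of C. elegans is an extracellular matrix made mostly of collagens that the epidermis secretes, first in the embryo and again at each larval moult. Cuticle collagen genes are transcribed in pulses tied to the making of a new cuticle, and some, such as col-19, are switched on in the adult. DPY-2, DPY-3, DPY-7, DPY-8 and DPY-10 form, with DPY-9, the annular furrows, the circumferential grooves between the ridges of the cuticle, and without them worms are short and fat. SQT-1 and ROL-6 act together in cuticle structure, and a dominant rol-6 allele is a widely used transformation marker. SQT-3, also known as COL-1, is processed by the astacin protease DPY-31, together with DPY-17. Because a whole worm was measured, more cells of a type and more RNA per cell cannot be told apart.

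All levels are given as log2 signal, so that a difference of 1 is a doubling. Array medians lay between 2.32 and 2.40, and for 63.2% of tested probes the mean was below 3. Day means below 3 are called dim, being close to the floor of the signal. No detection calls were used, so a difference from a day mean under 3 is read as a lower bound. Such sizes are written with at least, which refers to the floor alone. They are point estimates, and the spread between arrays allows smaller values. Across tested probes, which are not independent replicates, arrays of 1 day correlated at 0.984 to 0.990 (Pearson's r) and arrays of different days at 0.941 to 0.981. With 2 or 3 arrays a day, precision is limited by their number.

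Most of these collagens were dim in young adults. On day 1, sqt-3 was the only gene of the 9 with a mean above 3, and 4 genes (dpy-7, dpy-8, sqt-1 and rol-6) had means under 3 on all 3 days. The other 5 had a day mean above 3 at some age and fell into 2 patterns: dpy-2, dpy-3 and sqt-3 were highest on day 12, and dpy-13 and sqt-2 had their highest mean on day 6.

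Among the furrow collagens, dpy-3 changed most between days. Its log2 signal was 1.96, 2.44 and 2.66 on the day 1 arrays, 1.88, 1.92 and 1.81 on the day 6 arrays, and 5.07 and 4.11 on the day 12 arrays. Both day 12 arrays lay above every younger array, and the day 6 arrays all lay below the day 1 arrays. The rise from day 6 to day 12 was at least 6.57-fold (log2 difference 2.72 ± 0.28, SE, adjusted p = 0.000189 by limma), and that from day 1 at least 4.69-fold (2.23 ± 0.28, adjusted p = 0.000379). Between day 1 and day 6 the difference was -0.48 ± 0.25 and was not called (adjusted p = 0.373). The change after day 6 differed from the change before it by 3.20 ± 0.45 (adjusted p = 0.00409), and dpy-3 was the 1 call among the 9 genes in that contrast, which passed for 3.46% of all 26761 tested probes, 2.22% in its direction and 1.24% in the other.

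The dpy-2 gene had levels of 2.24, 2.48 and 2.69 on day 1, 2.26, 2.53 and 2.02 on day 6, and 3.25 and 3.59 on day 12. The day 12 arrays again lay above all 6 younger arrays, which overlapped each other. It rose by at least 2.22-fold after day 6 (1.15 ± 0.21, adjusted p = 0.00509) and by at least 1.93-fold from day 1 (0.95 ± 0.21, adjusted p = 0.0105). Without day 12 replicate 2, which assumes that the lone day 12 array varies like the other groups, both calls were lost (adjusted p = 0.0700 and 0.111). For dpy-2 the difference between the later and the earlier change was 1.35 ± 0.33 (adjusted p = 0.0565).

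The dpy-7 gene, whose promoter is a common driver of expression in the epidermis, stayed dim throughout. Its levels were 2.13, 1.61 and 1.70 on day 1, 2.002, 2.23 and 1.97 on day 6, and 2.60 and 2.41 on day 12. The day 12 arrays lay above all younger ones, and the difference from day 1 was called (0.69 ± 0.19, adjusted p = 0.0346). With all day means under 3, its size has no meaning as a fold, and the call was lost with quantile normalization (adjusted p = 0.0567), with median centring (0.0534), and in 6 of the 8 fits that left out 1 array, with either day 12 array among them (0.195 without replicate 1 and 0.0915 without replicate 2).

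For dpy-8 the arrays ran from 1.53 to 2.40 with all 3 days overlapping. The 95% interval of its log2 difference between day 12 and day 1 was -0.46 to 0.57, so changes within that range were not excluded. At this dim signal a larger one could be compressed. The furrow collagen gene dpy-9, which was not among the 10 genes, was dim as well, with day means of 2.42, 2.55 and 2.24 on days 1, 6 and 12, and was not called in any comparison.

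In the RefSeq gene table (WBcel235), dpy-10 and dpy-2 are neighbours on chromosome II with 3 genes between them, none of them protein-coding, while dpy-3, dpy-7 and dpy-8 lie on chromosome X. The gene T14B4.19 overlaps dpy-10 by 1217 bases and has a probe of its own. That probe read 3.01, 2.20 and 2.59 on day 1, 3.09, 2.62 and 2.71 on day 6, and 3.89 and 3.67 on day 12, and was called higher on day 12 against day 6 (0.97 ± 0.24, adjusted p = 0.0297). Whether it also reads dpy-10 RNA was not tested.

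Of the squat and roller genes, sqt-3 was measured above the dim level on all arrays. It read 4.05, 3.89 and 4.41 on day 1, 3.62, 4.30 and 5.06 on day 6, and 5.73 and 5.81 on day 12. The day 12 arrays stood above all others, while days 1 and 6 overlapped and differed by 0.21 ± 0.31 (95% interval -0.47 to 0.89, adjusted p = 0.812). The rise was 2.72-fold after day 6 (1.44 ± 0.34, adjusted p = 0.0243) and 3.14-fold from day 1 (1.65 ± 0.34, adjusted p = 0.00824). The size held with either day 12 array left out, at 1.61 to 1.69 from day 1, but the calls from day 1 then had adjusted p = 0.0527 and 0.0712 and those after day 6 0.109 and 0.160. Leaving out day 6 replicate 2 ended the later call too (adjusted p = 0.0659). The noncoding gene F23H12.13 overlaps sqt-3 in the RefSeq table, and C31H2.14 overlaps dpy-8, and whether the probes separate them was not tested.

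The sqt-1 gene had levels of 2.39, 2.41 and 2.39 on day 1, 2.27, 2.78 and 2.49 on day 6, and 1.96 and 1.96 on day 12. Both day 12 arrays lay below every younger array, but at dim levels, and neither difference was called (-0.43 ± 0.17 from day 1, adjusted p = 0.146, and -0.55 ± 0.17 after day 6, adjusted p = 0.0844). Its partner rol-6 read between 1.49 and 2.12 on all 8 arrays, with the 3 days overlapping and a difference between day 12 and day 1 of -0.28 ± 0.22 (adjusted p = 0.499).

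The plot of levels by array shows these patterns side by side.

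**Figure D1:**
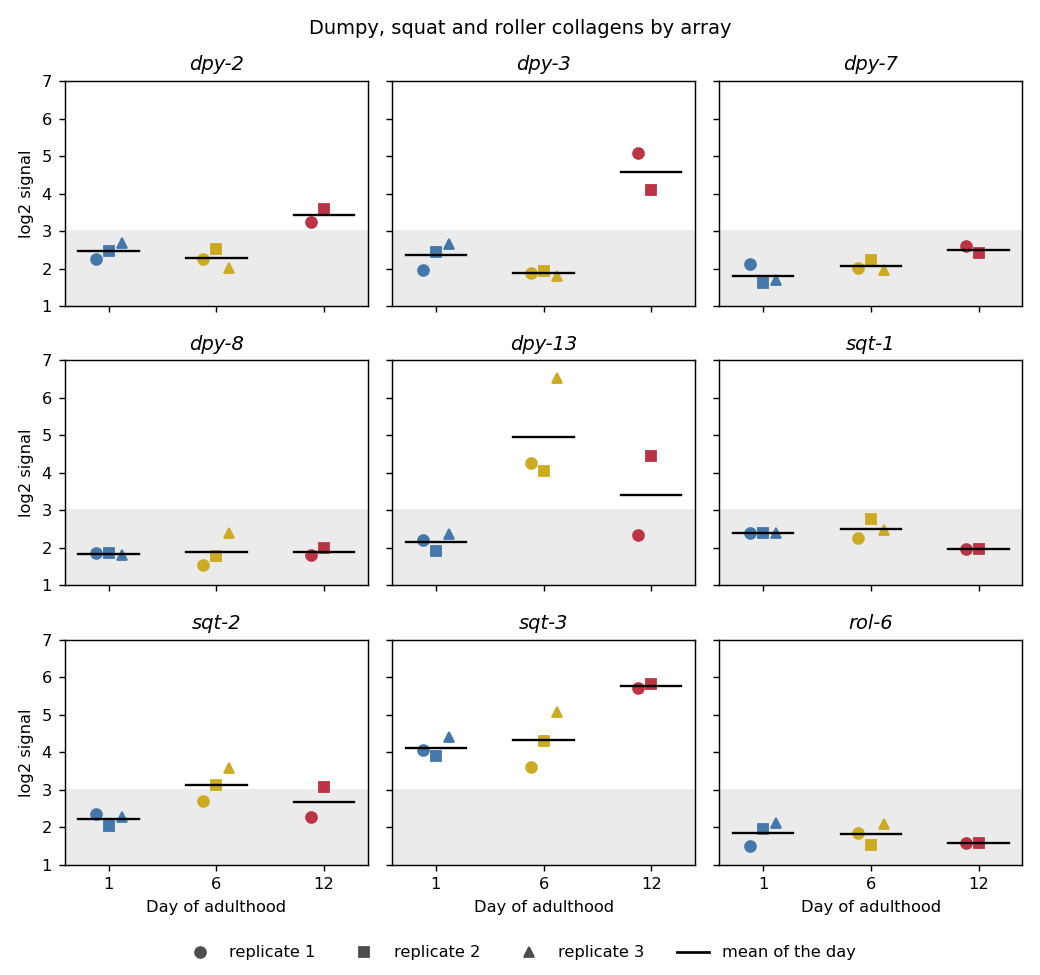
Log2 signal of the 9 measured collagen genes by day of adulthood. Each point is 1 array, its shape gives the replicate, black bars are day means, and the grey band marks levels under 3. The day 12 points of dpy-2, dpy-3 and sqt-3 lie above all younger points, and dpy-13 and sqt-2 have their highest point on day 6 replicate 3.

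The dpy-13 gene, a cuticle collagen gene whose mutation gives short worms, had its highest mean on day 6. It read 2.20, 1.91 and 2.38 on day 1, rose to 4.27, 4.05 and 6.53 on day 6, and read 2.35 and 4.45 on day 12. All day 6 arrays lay above the day 1 arrays, and the 2 day 12 arrays lay far apart, one at the day 1 level and the other within the day 6 range. The rise from a dim day 1 to day 6 was estimated at 6.91-fold (2.79 ± 0.65, 95% interval 1.35 to 4.23, adjusted p = 0.0424). Its size rested in part on day 6 replicate 3, without which it was 2.002 (adjusted p = 0.0872). The call was lost in 5 of the 8 fits with an array left out, each time a day 1 array or day 6 replicate 1 or 3, with adjusted p up to 0.116. Day 12 did not differ beyond the spread from day 6 (-1.55 ± 0.72, adjusted p = 0.271) or from day 1 (1.24 ± 0.72, adjusted p = 0.346).

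The squat gene sqt-2 also had its highest mean on day 6, with 2.34, 2.04 and 2.27 on day 1, 2.69, 3.13 and 3.58 on day 6, and 2.27 and 3.09 on day 12. Its day 6 arrays lay above its day 1 arrays, but the difference of at least 0.92 ± 0.26 was not called (adjusted p = 0.0858). The array order was shared with dpy-13: both genes were highest on day 6 replicate 3, and both read higher on day 12 replicate 2 than on replicate 1. Of the 9 genes, 5 were highest on replicate 3 among the day 6 arrays, against 31.2% of all tested probes, and 6 were higher on replicate 2 of day 12, against 49.2%. For the 10 other named cuticle collagens the counts were 3 on day 6 and 6 on day 12. These array counts were made after the values were seen.

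Of the genes outside the 10, those with array profiles most like that of dpy-13 (Pearson's r over the 8 arrays, a description without a test) were the collagen gene col-17 (r = 0.986), ZK180.5 (0.977) and the collagen gene dpy-5 (0.971), which gives dumpy worms when lost. The col-17 probe read 3.31, 3.07 and 4.95 on day 6 and between 1.76 and 2.04 on day 1. The dpy-5 probe read 3.41, 3.42 and 4.97 on day 6, with a difference from a dim day 1 of at least 1.60 ± 0.41 that was not called (adjusted p = 0.0644). The profiles nearest to dpy-2 were oac-14 (0.987), C48B4.3 (0.984) and nlp-25 (0.978), those nearest to dpy-3 were VM106R.1 (0.983), nhr-85 (0.983) and ncx-3 (0.981), and those nearest to sqt-3 were K06C4.23 (0.986), K01B6.3 (0.977) and B0350.75 (0.971). These were the 3 highest of 10841 candidate genes for each, over 8 arrays that fall into 3 ages.

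**Figure D2:**
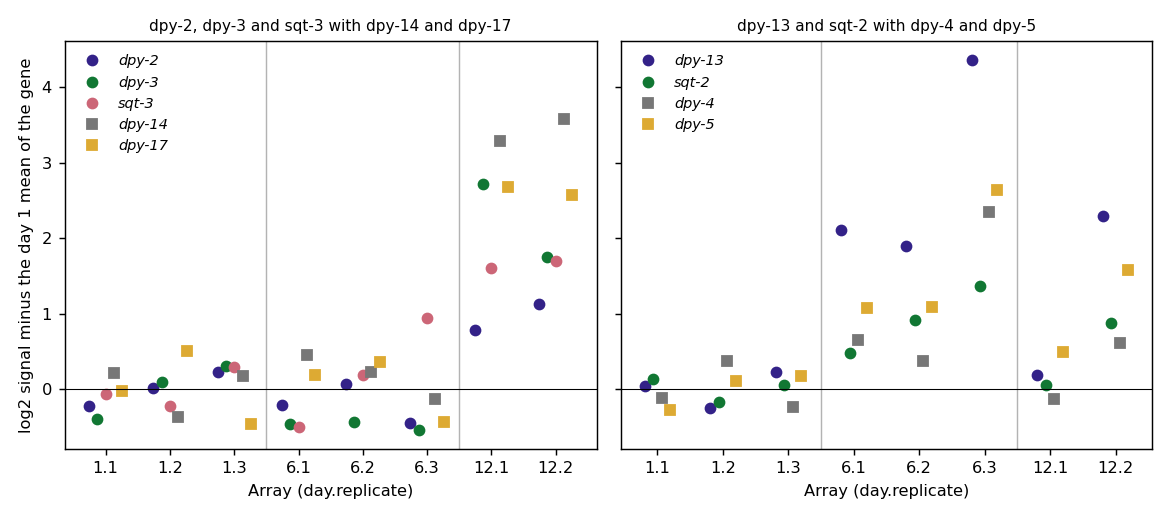
Log2 signal minus the gene's own day 1 mean on each of the 8 arrays, labelled day.replicate. Circles are genes among the 10 described and squares are only some of the 10 other named cuticle collagens. Of those other 10, 2 were called higher from day 6 to day 12. On day 6, 3 of them were highest on replicate 3, against 31.2% of all tested probes. On the left, dpy-2, dpy-3, sqt-3, dpy-14 and dpy-17 are raised on both day 12 arrays, and on the right, dpy-13, sqt-2, dpy-4 and dpy-5 peak on day 6 replicate 3 and read higher on day 12 replicate 2 than on replicate 1.

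Counted over the 9 genes, 1 rose and 0 fell between day 1 and day 6, where 3.85% of all tested probes were called, 2.18% higher and 1.66% lower. From day 6 to day 12, 3 rose and 0 fell, against 9.05% of all probes called, 6.36% higher and 2.69% lower. From day 1 to day 12, 4 rose and 0 fell, against 14.1% called, 9.58% higher and 4.52% lower. Dim probes lower these shares: among the 11117 probes with a day mean of at least 3, 8.92% were called between day 1 and day 6 (5.06% higher, 3.86% lower), 20.4% from day 6 to day 12 (14.2% higher, 6.15% lower), 31.4% from day 1 to day 12 (21.4% higher, 10% lower) and 8.01% for the difference between the later and the earlier change (5.16% and 2.85%). The median log2 difference over the 9 genes was 0.12, -0.0017 and 0.69 in the same order, and over all tested probes 0.02, -0.03 and -0.01. These comparisons share arrays, so they are not separate evidence. Day 12 arrays did not overlap day 1 arrays for 5 of the 9 genes, 4 higher and 1 lower, where 21.1% and 17.4% of all probes did the same. Against day 6 the same 5 genes did not overlap, where 18.1% of all probes lay higher and 20% lower. Day 6 arrays lay wholly above day 1 arrays for dpy-13 and sqt-2 and wholly below for dpy-3, where 14.3% and 8.9% of all probes did so. Without day 12 replicate 2 the called genes dropped from 3 to 1 after day 6 and from 4 to 1 over the whole span, with dpy-3 remaining. Without day 12 replicate 1, dpy-2 and dpy-3 remained called in both.

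**Figure D3:**
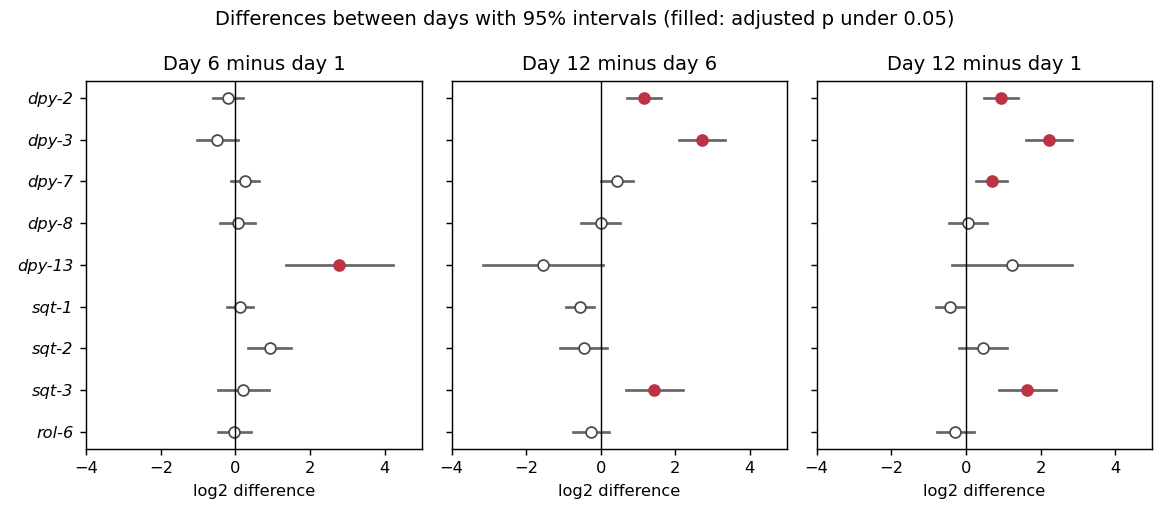
Log2 differences between days for the 9 genes, with lines for the 95% interval from the limma fit over 8 arrays. Filled points passed an adjusted p of 0.05: dpy-13 for day 6 against day 1, dpy-2, dpy-3 and sqt-3 for day 12 against day 6, and those 3 with dpy-7 for day 12 against day 1.

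The other named cuticle collagens, a list of 10 with probes for all, were mostly not called. Between day 1 and day 12, 2 rose, 0 fell and 8 were not called, with a median of 0.04. Over that span 9.58% of all tested probes were called higher and 4.52% lower. The 2 that rose were dpy-14 and dpy-17. From a dim level, dpy-14 rose from 2.48 ± 0.32 to 5.91 ± 0.20 (mean ± SD, n = 3 and 2, log2 difference at least 3.43 ± 0.23, adjusted p = 8.77e-06). The dpy-17 gene rose from 4.28 ± 0.48 to 6.90 ± 0.08 (2.62 ± 0.29, adjusted p = 0.000173). Neither was called between days 1 and 6 (0.18 ± 0.21 for dpy-14 and 0.04 ± 0.26 for dpy-17). The dpy-4 gene had a day 6 difference of at least 1.12 ± 0.44 and bli-6 a day 12 difference from day 1 of -1.61 ± 0.66, to a dim level, neither called.

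Of 151 numbered col genes measured, 98 were dim on all days. Between day 1 and day 12, 6 rose, 35 fell and 110 were not called, against 9.58% of all tested probes called higher and 4.52% lower. The adult collagen genes col-19 (-5.76 ± 0.71, adjusted p = 0.000335) and col-62 (-1.18 ± 0.22, adjusted p = 0.00493) fell, the second to a dim level and not called without day 12 replicate 2 (adjusted p = 0.0530). Whether the dumpy, squat and roller genes differ as a group from the numbered ones was not tested.

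Of 12 measured genes for enzymes and factors that fold, cross-link and cut collagens, 1 rose and 1 fell between day 1 and day 12. Their median was 0.11. Over all tested probes 9.58% were called higher and 4.52% lower. The prolyl 4-hydroxylase subunit gene dpy-18 rose from 7.07 ± 0.22 to 8.24 ± 0.02 (1.17 ± 0.17, adjusted p = 0.000935), and doxa-1, a maturation factor of the dual oxidase that cross-links the cuticle, fell (-1.35 ± 0.21, adjusted p = 0.00150). The protein disulfide isomerase gene pdi-2, for another hydroxylase subunit, was lower on day 6 (-0.63 ± 0.15, adjusted p = 0.0402) and higher again on day 12 than on day 6 (0.70 ± 0.16, adjusted p = 0.0221). The first of these calls was lost with any 1 array left out (adjusted p 0.0561 to 0.173) and the second without either day 12 array (0.0649 and 0.155) or without day 6 replicate 1 or 2 (0.0795 and 0.0602). The SQT-3 protease gene dpy-31 (0.16 ± 0.18), the convertase gene bli-4 (0.43 ± 0.15) and the peroxidase gene mlt-7 (-0.44 ± 0.25) were not called between day 1 and day 12.

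Regulators of the epidermis and of moulting were measured with 12 genes, of which 5 rose and 0 fell between day 1 and day 12, with a median of 0.51. Among all tested probes 9.58% were called higher and 4.52% lower. Among those with a day mean of at least 3 the shares were 21.4% and 10%, and 1 of the 12 genes was dim on all days. The nuclear hormone receptor gene nhr-25 rose from 3.42 ± 0.47 to 6.62 ± 0.08 (3.19 ± 0.24, adjusted p = 1.34e-05). The GATA factor genes elt-6 (2.13 ± 0.24), elt-1 (1.92 ± 0.20) and egl-18 (1.21 ± 0.18) and the zinc finger gene bed-3 (1.88 ± 0.16) rose as well, with adjusted p at most 0.00126. The period homologue lin-42 was higher on day 6 than on day 1 (0.81 ± 0.19, adjusted p = 0.0436), a call lost with every day 1 or day 6 array left out.

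Some markers of moulting, embryos and epidermis also rose by day 12, and their part in the rise of dpy-2, dpy-3 and sqt-3 was not tested. Of 11 measured moulting markers, 6 rose and 0 fell between day 1 and day 12, with a median of 0.81. Among all tested probes, 9.58% were called higher and 4.52% lower over that span. The mean log2 signal of the 11 per array ran from 3.08 to 3.20 on day 1, 3.35 to 3.43 on day 6 and 4.63 to 4.64 on day 12. The precuticle genes noah-1 (3.73 ± 0.23), noah-2 (3.60 ± 0.16) and fbn-1 (3.38 ± 0.19, from a dim level) rose, as did acn-1 (3.20 ± 0.18) and mlt-8 (2.19 ± 0.19), also from dim levels, and mlt-10 (at least 0.81, adjusted p = 0.0138, and 0.1304 without day 12 replicate 2). The first 5 had adjusted p at most 3.41e-05. The moulting protease gene nas-37 was lower on day 6 than on day 1 (-1.03 ± 0.18, adjusted p = 0.0145, and 0.0681 and 0.0539 without day 6 replicate 1 or 3), and 4 of the 11 markers were dim on all days. Without any 1 array, at least 5 of these markers still rose between day 1 and day 12.

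Of 14 embryo markers, 5 rose and 0 fell between day 1 and day 12, where 9.58% of all tested probes were called higher and 4.52% lower. The median log2 difference of the 14 was 0.29, with 10 above 0 and 4 below. Their mean log2 signal per array ran from 3.03 to 3.31 on day 1, 3.52 to 3.63 on day 6 and 4.11 to 4.23 on day 12. The hatching enzyme gene hch-1 went from 2.84 ± 0.29 to 4.30 ± 0.68 and 7.84 ± 0.14 on days 1, 6 and 12, a rise of at least 5.01 ± 0.33 over the whole span (adjusted p = 8.18e-06). The T-box genes tbx-8 (2.71 ± 0.17) and tbx-38 (2.53 ± 0.29) and the zinc finger gene ztf-11 (2.55 ± 0.16) rose too, as did tbx-37 (at least 1.503, adjusted p = 0.0217). The tbx-37 difference fell to 0.71 without day 12 replicate 2 (adjusted p = 0.128) and reached 2.30 without replicate 1, and the call was also lost without day 1 replicate 1 or 3 (0.0549 and 0.0630). The other 9 embryo markers were not called from day 1 to day 12, and 1 of the 14, tbx-9, was lower on day 12 than on day 6 (-0.66). That tbx-9 call was lost in 5 of the 8 fits with an array left out, with differences from -0.77 to -0.55 over the 8. The endoderm genes end-1 and end-3, which mark early embryos, were dim on all days, and 5 of the 14 markers were. Of 8 epidermis markers, 3 rose, 0 fell and 5 were not called between day 1 and day 12, with a median of 0.22. The 3 were the hedgehog-related gene wrt-10 (3.68 ± 0.18), the junction gene ajm-1 (1.09 ± 0.22) and the fusogen gene eff-1 (0.92 ± 0.19), while 3 were dim on all days. With day 12 replicate 1 left out ajm-1 was no longer called (adjusted p = 0.0802), and with replicate 2 left out eff-1 was not (0.0579). The epidermal attachment gene let-805 was lower on day 6 than on day 1 (-1.08 ± 0.21, adjusted p = 0.0201), a call lost without day 1 replicate 1 or 2 or day 6 replicate 1 or 3 (adjusted p 0.0576 to 0.0825), and differed by -0.77 between day 12 and day 1 (adjusted p = 0.0505).

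Loss of the furrow collagens is known to switch on osmotic, detoxification and antimicrobial genes, of which 10 were measured. Between day 1 and day 12, 4 rose and 2 fell. Over that span 9.58% of all tested probes were called higher and 4.52% lower. With a day mean of at least 3, the shares were 21.4% and 10%. The antimicrobial genes nlp-34 (at least 5.83 ± 0.52), nlp-29 (3.02 ± 0.35), cnc-2 (2.88 ± 0.40) and nlp-31 (at least 2.13 ± 0.33) rose, with adjusted p at most 0.00149, and the glutathione S-transferase gene gst-4 (-2.25 ± 0.19, adjusted p = 2.83e-05) and the osmotic response gene gpdh-1 (-0.83, adjusted p = 0.0446) fell. The gpdh-1 call was lost in 5 of the 8 fits with an array left out, without day 1 replicate 1 or 2, day 6 replicate 1 or either day 12 array (adjusted p up to 0.180). The osmotic response gene hmit-1.1 had the lowest difference of the list between day 12 and day 6 (-2.36), which was not called (adjusted p = 0.146). Of these, nlp-34 (3.43 ± 0.46), nlp-29 (1.98 ± 0.31) and cnc-2 (2.58 ± 0.36) were already called higher on day 6. No measured furrow collagen gene was called between day 1 and day 6. All of them were dim on both days, where the floor can hide a fall. Whether these response genes followed the furrow collagens here was not tested.

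**Figure D4:**
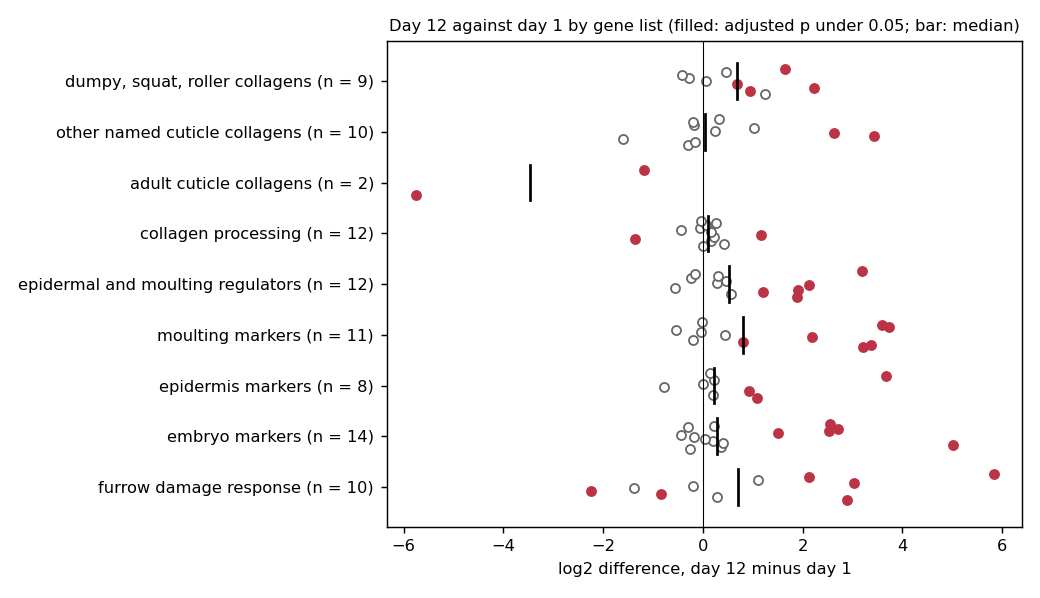
Log2 difference between day 12 and day 1 for each measured gene, by gene list. Filled points passed an adjusted p of 0.05, open points did not, black bars are list medians, and vertical offsets only separate points. The dumpy, squat and roller genes have a median of 0.69 with 4 filled points, all above 0, and the 2 adult collagens lie below 0.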

How the data were processed

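The authors deposited 1 processed value per probe and array, 29317 probes by 8 arrays, read here as log2 signal because values ran from 0.68 to 13.23. Which software and normalization they used is not stated in the labels. RNA was extracted with Trizol and labelled with biotin, per the labels' protocols. A platform annotation table named 26761 probes, 480 of them with several symbols, and the 2556 others were left out because no gene could be named.

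Each probe got 1 mean per day from the 8 arrays in limma 3.58.1 in R 4.3.3 (lmFit and eBayes, two-sided, residual df 5, prior df 5.07). The Benjamini-Hochberg adjustment ran over all 26761 probes, and a call is an adjusted p under 0.05. The change after day 6 minus the change before it was tested in the same fit. The fit was tested on simulated data. Members and lists were chosen with earlier results of these data known. All 9 measured genes are described, and from each other list genes were taken among the 6 with the largest absolute difference between any 2 days, with dpy-9, dpy-31 and bli-4. Named outside that rule, after their values were seen, were mlt-10, tbx-9, gpdh-1, end-1 and end-3. Alternatives were other scalings, variance models, probe sets, array weights, a replicate block and leaving out each array. Sequences were not used here.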

Additional observations from a re-analysis of the deposited data

Results flagged for a closer look

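The change of dpy-3 differed between the 2 intervals, which are not of equal length. Its log2 difference was -0.48 from day 1 to day 6, which was not called, and at least 2.72 from day 6 to day 12. The later change exceeded the earlier one by 3.20 ± 0.45 (95% interval 2.20 to 4.20, limma adjusted p = 0.00409). Both younger means, 2.36 on day 1 and 1.87 on day 6, were dim, so the sizes of these differences are uncertain. Both day 12 arrays showed the rise, and the contrast passed in each alternative in which it could be computed, including each fit with an array left out. The fit without dim probes is no added support, because dpy-3 passes that filter only through day 12. No group held the 4 arrays needed to look for a single array far from the rest.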

How the results depend on the processing

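The number of the 9 genes called between day 1 and day 6 was 1, for dpy-13, and 0 by limma with an intensity trend and robust variances, with all probes of the table or with array weights, where dpy-13 had adjusted p = 0.0808, 0.0536 and 0.0504. It ran from 0 to 1 with each array left out. The count for day 12 against day 6 ran from 1 to 3 with each array left out, and that for day 12 against day 1 from 1 to 4. For the change after day 6 against the change before it, 2 genes, dpy-2 and dpy-3, were called with dim probes left out or with array weights, and 1 to 2 with each array left out. Of the 3 day means of dpy-2 and dpy-3, only that of day 12 reaches 3 (3.42 and 4.59). They pass the filter for dim probes through that day alone, so their calls under it are no added support. No called difference of the 9 genes changed sign under these alternatives. Leaving out a day 12 array leaves that day with 1, assumed to vary like the others. With the replicate number as a replicate block, the counts were 1, 3, 3 and 1, with dpy-7 lost (adjusted p = 0.0895). The deviations of arrays with the same number from their day means correlated between -0.19 and 0.21. Whether such arrays shared a culture or batch cannot be told from these values, because deviations within a day offset each other. Signals near the floor limit dpy-7, dpy-8, sqt-1 and rol-6.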
